A study of Homo sapiens with 13 samples.

Results

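The genes described here encode the proteins of spliceosomal small nuclear ribonucleoproteins (snRNPs) and their relatives: the Sm proteins, the Sm-like LSM proteins, the particle-specific SNRNP proteins and the SF3A and SF3B subunits of the U2 particle. They were taken as the rows of the expression table whose symbol starts with SNRP, SNRNP, LSM, SF3A or SF3B in the standard form of these families and whose annotation reads protein-coding. The rule used no measured value and gave 40 of the 26454 genes in the table. These are 7 Sm core genes, 8 genes of the LSM rings, 3 of the U1 snRNP, 11 of the U2 snRNP, 3 of the U5 snRNP and tri-snRNP, 3 of the U11/U12 snRNP and 5 other LSM genes, 2 of which (LSM10 and LSM11) belong to the U7 snRNP.

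Spliceosomal snRNPs remove introns. Sm proteins close into a ring around the snRNAs of the U1, U2, U4 and U5 particles, and the nuclear LSM ring holds the U6 snRNA, while a cytoplasmic LSM ring containing LSM1 binds the ends of shortened mRNAs and promotes decapping. The U2 particle, with SF3A and SF3B, recognises the intron branch site. eIF4G is the scaffold of the cap-binding complex that brings mRNAs to the ribosome. CDK12 is a kinase that phosphorylates the tail of RNA polymerase II, and rapamycin inhibits the growth-regulating kinase complex mTORC1.

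RNA was sequenced from U2OS cells, a human osteosarcoma line, as total RNA and as RNA recovered by immunoprecipitation (IP) of eIF4G. All cells received an siRNA for 48 h. The groups were the IP after CDK12 siRNA with mock treatment (2 libraries, numbered 2 and 3), the IP after control siRNA with rapamycin at 50 ng/ml for 24 h (2 libraries), the IP after control siRNA with mock treatment (3 libraries), and total RNA of the same 3 treatments in the same order (2 libraries each). The mock control is called control below. The labels do not say whether libraries of a group came from separate cultures, so a p-value here is set against library-to-library spread, part or all of which may be technical.

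Depth ran from 12.9 to 30.6 megatags per library, recovered from the steps of the FPKM values. CDK12 itself had 0.706 and 0.707 FPKM in total RNA after CDK12 siRNA, against 1.64 and 1.72 FPKM in control total RNA, a difference of −0.55 ± 0.05 on the log2 scale (SE, limma adjusted p = 4.52e-05). In the IP, CDK12 had 0.493 and 0.338 FPKM after CDK12 siRNA and 0.497 to 0.535 FPKM in the control. Mesenchymal markers summed to 71.1 to 397 FPKM across libraries. Of these 8 markers, 5 reached a group mean of 1 FPKM in control total RNA and 7 in the control IP. COL1A2 was the lowest, at 0.007 to 0.03 FPKM in every library. None of the 5 epithelial or 5 haematopoietic markers reached a group mean of 1 FPKM. The 2 IP libraries after CDK12 siRNA differed from each other by a chi-square of 57.6 per degree of freedom over genes, against 9.43 to 10.7 between control IP libraries. The value was 22.4 for the 2 rapamycin IP libraries and 3.53 to 4.59 within the total RNA groups. The main fit pooled the spread of all 6 groups, so total RNA changes were also set against the wider spread of the IP. The 2 rapamycin IP libraries stood apart on the first principal component, which held 70.2% of the variance, at −6.87 and 8.68, where control IP libraries lay at −68.8 to −61.3 and control total RNA at 50.8 and 51.0. The sample titles of the rapamycin libraries also carry another number code than the rest, and that code and rapamycin cannot be told apart.

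Values are FPKM, fragments per kilobase of the whole gene body, scaled to the tags of the library, introns included. The level of a spliced mRNA on this scale depends on intron length, so levels are compared between libraries for 1 gene and not between genes. They are shares of a library, so fewer RNA molecules of a gene per cell and more of everything else cannot be told apart. The members' gene bodies had a median of 14062 bp, against 15088 bp over all genes. For 4 members, reads may belong to an overlapping gene: LSM1 (with BAG4), SF3A1 (with CCDC157), SF3B3 (with SNORD111 and SNORD111B) and SNRPB (with SNORD119). Sm and LSM genes also have many processed pseudogenes, to which some reads could have been lost. The fewest reads behind any value were 28, for SNRNP25, and 4 members fell under 100 reads in at least 1 library.

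The promoters of 3 members are printed because they mark the ends of the response: SF3B6 had the largest fold of IP over total RNA in control cells, and, on the log2(scaled FPKM + 1) scale, SNRPF the largest fall in the rapamycin IP and SNRNP200 the largest rise there. The windows run from 250 bases before to 50 bases after the start site, in the direction of transcription, from RefSeq on GRCh38.p14. They lie at chr2:24076277-24076576 on the minus strand (SF3B6), chr12:95858702-95859001 on the plus strand (SNRPF) and chr2:96305497-96305796 on the minus strand (SNRNP200). Capitals mark the ETS core CCGGAAG, the CCAAT box and the GC box GGGCGG, on either strand.
SF3B6: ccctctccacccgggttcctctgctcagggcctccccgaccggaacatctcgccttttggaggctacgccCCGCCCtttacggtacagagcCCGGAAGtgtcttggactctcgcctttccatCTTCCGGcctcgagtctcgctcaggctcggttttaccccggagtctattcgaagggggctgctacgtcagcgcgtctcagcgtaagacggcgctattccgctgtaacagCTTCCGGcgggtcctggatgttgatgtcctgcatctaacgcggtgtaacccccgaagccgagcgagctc
SNRPF: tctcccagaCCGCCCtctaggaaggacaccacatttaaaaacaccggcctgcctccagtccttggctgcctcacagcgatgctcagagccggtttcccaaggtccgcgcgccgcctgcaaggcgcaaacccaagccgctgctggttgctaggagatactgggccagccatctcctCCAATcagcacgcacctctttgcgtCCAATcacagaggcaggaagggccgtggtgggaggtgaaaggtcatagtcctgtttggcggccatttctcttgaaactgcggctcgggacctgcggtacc
SNRNP200: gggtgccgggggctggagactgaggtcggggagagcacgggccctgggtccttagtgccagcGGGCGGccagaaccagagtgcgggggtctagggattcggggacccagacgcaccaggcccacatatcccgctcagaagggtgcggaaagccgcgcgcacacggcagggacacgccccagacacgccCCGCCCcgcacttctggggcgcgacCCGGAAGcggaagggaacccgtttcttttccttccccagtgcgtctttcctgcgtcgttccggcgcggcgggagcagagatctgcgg
The SF3B6 window held 3 ETS cores and the SNRNP200 window 1, at 37 bases before its start, whereas the SNRPF window held 2 CCAAT boxes and no ETS core.

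RefSeq windows were at hand for 34 of the 40 genes, 42 windows in all, and the 6 genes without one were LSM1, LSM6, LSM14A, SF3B3, SNRNP35 and SNRPD1. The ETS core, the binding element of ETS-family factors such as GABPA, was present in 17 of the 34 genes. It stood in 47.6% of their windows, against 10.3% of all 35116 windows and 12.8% of protein-coding windows. The 17 genes include SNRPB, SNRPD2, SNRPE and SNRPG of the Sm core, LSM5 and LSM8, and 8 of the 11 genes of the U2 particle. The CCAAT box (CCAAT) was in 33.3% of member windows against 34.7% of protein-coding windows, the GC box in 57.1% against 56.3%, and the TATA box (TATAAA) in 2.38% against 9.47%. The NRF1 core (GCATGCGC) was in 4.76% against 3.74%, and the YY1 core (AAGATGGC) in 9.52% against 3.53%. A start resembling the 5′ terminal oligopyrimidine motif, a C followed by at least 4 pyrimidines at the annotated start, was found in 6 genes (LSM2, LSM8, LSM11, SF3A2, SNRPA and SNRPD2), or 14.3% of member windows against 4.54% of protein-coding windows. These are letter matches in annotated windows, searched on both strands except for the start motif. The ETS core ends in AAG, with which the YY1 core begins, so the same letters can belong to both.

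Transcripts of the Sm and LSM ring genes were far more represented in the eIF4G IP than in total RNA of control cells. Of the 40 genes, 39 passed the expression filter (2 or more libraries with an FPKM of 1 or more), 1 of them, LSM11, through rapamycin libraries only. LSM12 did not pass, at 0.175 to 0.866 FPKM. In the IP against total RNA of control cells, 32 of the 39 were higher and 1 was lower (limma adjusted p below 0.05 over 9908 genes), where 54.0% of all genes tested were higher and 26.4% lower, 80.5% in all. The libraries of the 2 groups did not overlap for 37 of the 39, against 86.3% of all genes. The median difference was 1.79 on the log2(scaled FPKM + 1) scale over the members and 0.35 over all genes tested. By share of sequenced reads, the 40 genes took 0.851% to 0.963% of gene reads in the control IP, against 0.253% and 0.262% in control total RNA.

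All 7 Sm core genes and all 8 LSM ring genes were higher in the control IP, with medians of 3.12 and 2.39 (log2). SNRPD1, which encodes the Sm protein D1 (hg19 chromosome 18, 19192230 to 19210206, plus strand), had 43.2, 37.3 and 37.1 FPKM in the control IP, against 2.20 and 2.22 FPKM in control total RNA. The groups do not come near each other, and the log2 difference was 3.83 ± 0.13 (SE, limma adjusted p = 5.27e-08). SNRPD3, for Sm protein D3 (chromosome 22, 24951618 to 24970932, plus strand), had 97.8, 78.1 and 81.0 FPKM in the IP and 6.49 and 5.83 FPKM in total RNA, a log2 difference of 3.79 ± 0.22 (adjusted p = 2.5e-07). SNRPF, for Sm protein F (chromosome 12, 96252709 to 96260238, plus strand), had 53.3, 37.4 and 49.9 FPKM against 2.94 and 2.76 FPKM, a difference of 3.81 ± 0.21 (adjusted p = 2.03e-07). The Sm core genes SNRPE and SNRPG averaged 6.21 ± 0.291 and 8.30 ± 1.14 FPKM in the IP (SD, n = 3) and 1.10 ± 0.0771 and 1.61 ± 0.0990 FPKM in total RNA (SD, n = 2).

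LSM5, of the shared part of both LSM rings, had 56.5, 47.7 and 52.2 FPKM in the control IP, against 4.06 and 3.83 FPKM in control total RNA, and LSM3 had a mean of 25.6 ± 0.952 FPKM against 2.74 ± 0.143 FPKM. LSM1, the subunit that sets the cytoplasmic ring apart, had 10.1 ± 0.949 FPKM in the IP and 1.01 ± 0.0559 FPKM in total RNA. LSM8, its counterpart in the nuclear ring, had 12.4, 11.1 and 9.63 FPKM against 1.27 and 1.42 FPKM. LSM6, LSM4 and LSM2 averaged 6.58 ± 0.928, 8.33 ± 0.927 and 5.78 ± 0.313 FPKM in the IP and 0.779 ± 0.0905, 1.49 ± 0.0580 and 1.38 ± 0.0127 FPKM in total RNA. LSM7 had the smallest difference of the ring genes, 1.12 ± 0.07 (log2, adjusted p = 4.57e-07).

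The U2 particle genes were split. SF3B6, for the small SF3B subunit that lies at the branch site (chromosome 2, 24290454 to 24299314, minus strand), had 94.4, 84.1 and 75.4 FPKM in the control IP, against 4.10 and 3.99 FPKM in control total RNA. Its fold of 20.9 was the highest of the 40 genes, at a log2 difference of 4.27 ± 0.16 (adjusted p = 5.53e-08). SF3B5, another small SF3B subunit, whose gene body is the shortest of the family at 736 bp, had 49.4 ± 5.49 FPKM against 14.4 ± 0.0346 FPKM. In contrast SF3A1 (−0.17 ± 0.09, adjusted p = 0.113), SF3A2 (−0.09 ± 0.09, 0.388), SF3B2 (0.24 ± 0.12, 0.0901) and SF3B3 (−0.01 ± 0.07, 0.942) did not pass the test, nor did SNRPA1 (0.25 ± 0.13, 0.0952). SF3B1, the subunit recurrently mutated in blood cancers, was higher in the IP by 0.89 ± 0.08 (adjusted p = 5.91e-06). SNRPB2, SF3A3 and SF3B4 were higher too, by 2.45, 1.33 and 1.13, so 6 of the 11 U2 genes were called higher.

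SNRNP200, the helicase of the U5 snRNP that unwinds the U4/U6 pair (chromosome 2, 96940074 to 96971307, minus strand), was the exception among called members. It had 4.55, 4.30 and 5.37 FPKM in the control IP, against 9.75 and 8.33 FPKM in control total RNA, a log2 difference of −0.64 ± 0.11 (adjusted p = 0.000343). Its tri-snRNP neighbours SNRNP27 and SNRNP40 were higher in the IP, by 3.03 ± 0.20 and 1.51 ± 0.11. The U1 genes SNRPC, SNRNP70 and SNRPA were higher by 2.95 ± 0.12, 1.10 ± 0.09 and 0.86 ± 0.09, and the U11/U12 genes SNRNP35, SNRNP25 and SNRNP48 by 2.34 ± 0.08, 1.79 ± 0.25 and 0.59 ± 0.05. Quantile normalization, under which the median of all genes was 0.03 in place of 0.35, gave 26 members higher and 8 lower, and with it all 15 Sm and LSM ring genes were still higher. Of all 9908 genes, 7633 were called with it, 3881 of them higher.

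**Figure D1:**
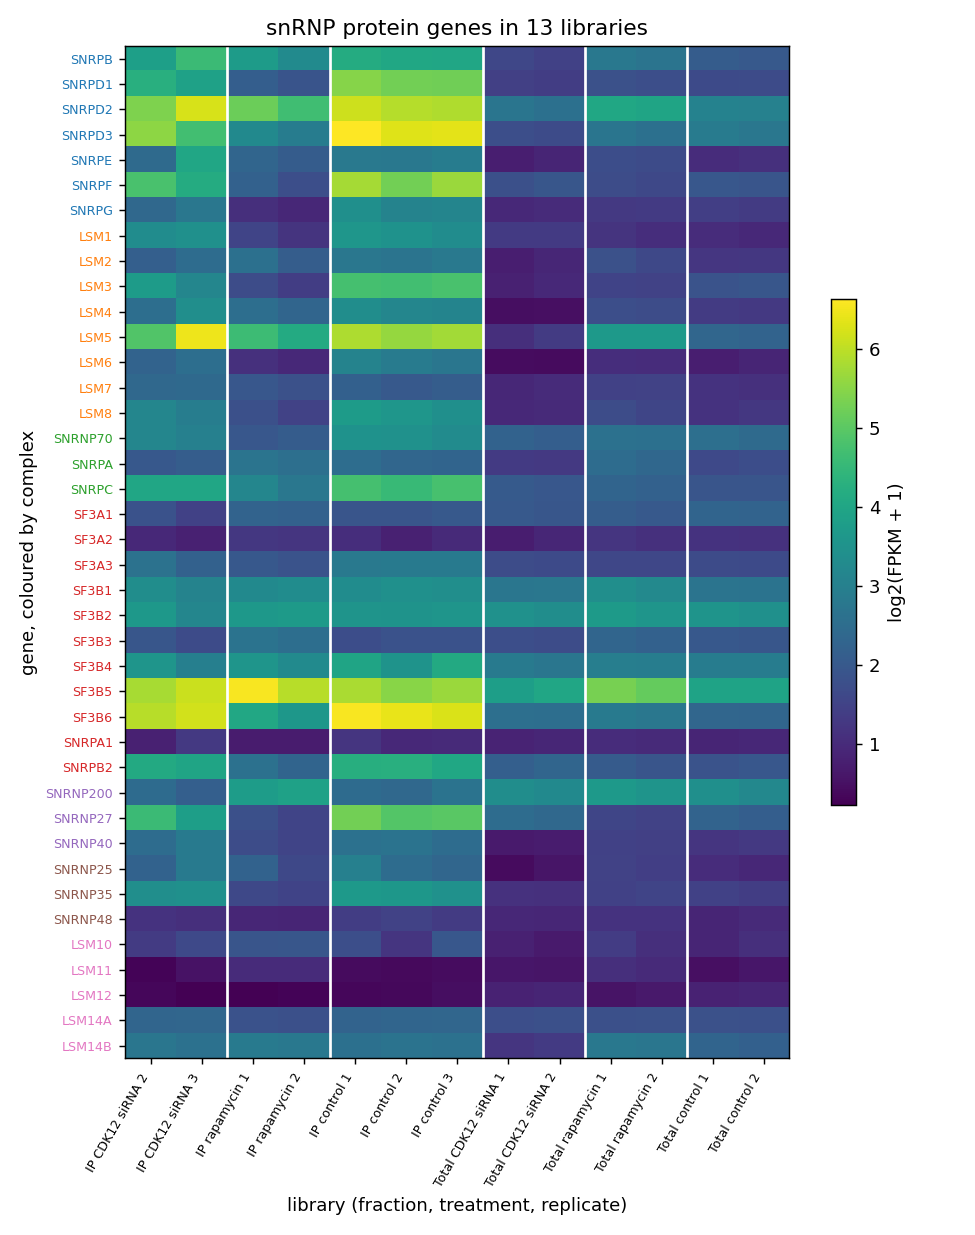
Levels of the 40 genes (rows, gene names coloured by complex) in the 13 libraries (columns, grouped by fraction and treatment), as log2(FPKM + 1). Rows are read across libraries: SNRPD3 is at 8.59 and 6.55 FPKM in the rapamycin IP columns, against 97.8, 78.1 and 81.0 FPKM in the control IP columns.

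After CDK12 siRNA the IP was still rich in these transcripts. In the IP against total RNA of CDK12 siRNA cells, 30 of the 39 were higher and 3 lower, where 55.7% of all genes were higher and 26.8% lower (82.5% in all), with medians of 1.60 over the members and 0.40 over all genes (log2). The groups did not overlap for 35 members, against 88.9% of all genes. All 15 Sm and LSM ring genes were again higher. LSM5 had 28.7 and 87.1 FPKM in the IP, against 1.14 and 1.56 FPKM in total RNA of the same treatment. Its mean fold, 42.96, was the highest of the family, but the 2 IP libraries lay a factor of 3.04 apart. SNRNP200 was lower in the IP by 1.18 on the log2 scale (−1.18 ± 0.12, adjusted p = 8.21e-06), at a fold of 0.447 over total RNA, and SF3A1 (−0.48 ± 0.10) and LSM11 (−0.26 ± 0.08) were the others that were lower. Quantile normalization gave 24 members higher and 8 lower. It called 7788 of all 9908 genes, 4080 of them higher.

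With rapamycin the IP and total RNA were much closer for these genes. In the IP against total RNA of rapamycin cells, 16 of the 39 were higher and 2 lower, where 38.9% of all genes were higher and 13.1% lower (51.9% in all), so the members' count of higher genes was near the background. The median was 0.32 over the members and 0.18 over all genes, and the groups did not overlap for 36 members, against 83.9% of all genes. Over all 40 genes the median fold of IP over total FPKM was 1.21 with rapamycin, against 3.92 in the control, and 0 genes reached a fold of 5 with rapamycin, where 18 did in the control. These folds were not counted over all genes, whose median log2 difference was also smaller with rapamycin, at 0.18 against 0.35 in the control. The highest fold with rapamycin was again that of SF3B6, at 2.27, from 15.8 and 11.3 FPKM in the IP against 6.12 and 5.81 FPKM in total RNA.

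Of the 7 Sm core genes 2 passed the test with rapamycin, SNRPD2 (1.05 ± 0.27, adjusted p = 0.0105) and SNRPB (0.88 ± 0.23, adjusted p = 0.0112). SNRNP70, the U1 70K protein, was lower in the IP, with 2.91 and 3.24 FPKM against 5.19 and 4.99 FPKM in total RNA (−0.45 ± 0.09, adjusted p = 0.00418). The count of 18 calls fell to 6 without rapamycin IP library 1 or rapamycin total library 2 and to 11 without rapamycin total library 1. With the compared groups alone 4 Sm core genes passed, SNRPD3 (adjusted p = 0.042) and SNRPE (0.0178) besides SNRPD2 and SNRPB. Without rapamycin IP library 1, SNRPD2 and SNRPB had adjusted p of 0.0889 and 0.0962, and without rapamycin total library 2 of 0.0595 and 0.065. Quantile normalization gave 8 members higher and 6 lower. It called 4543 of all 9908 genes, 2323 of them higher.

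**Figure D2:**
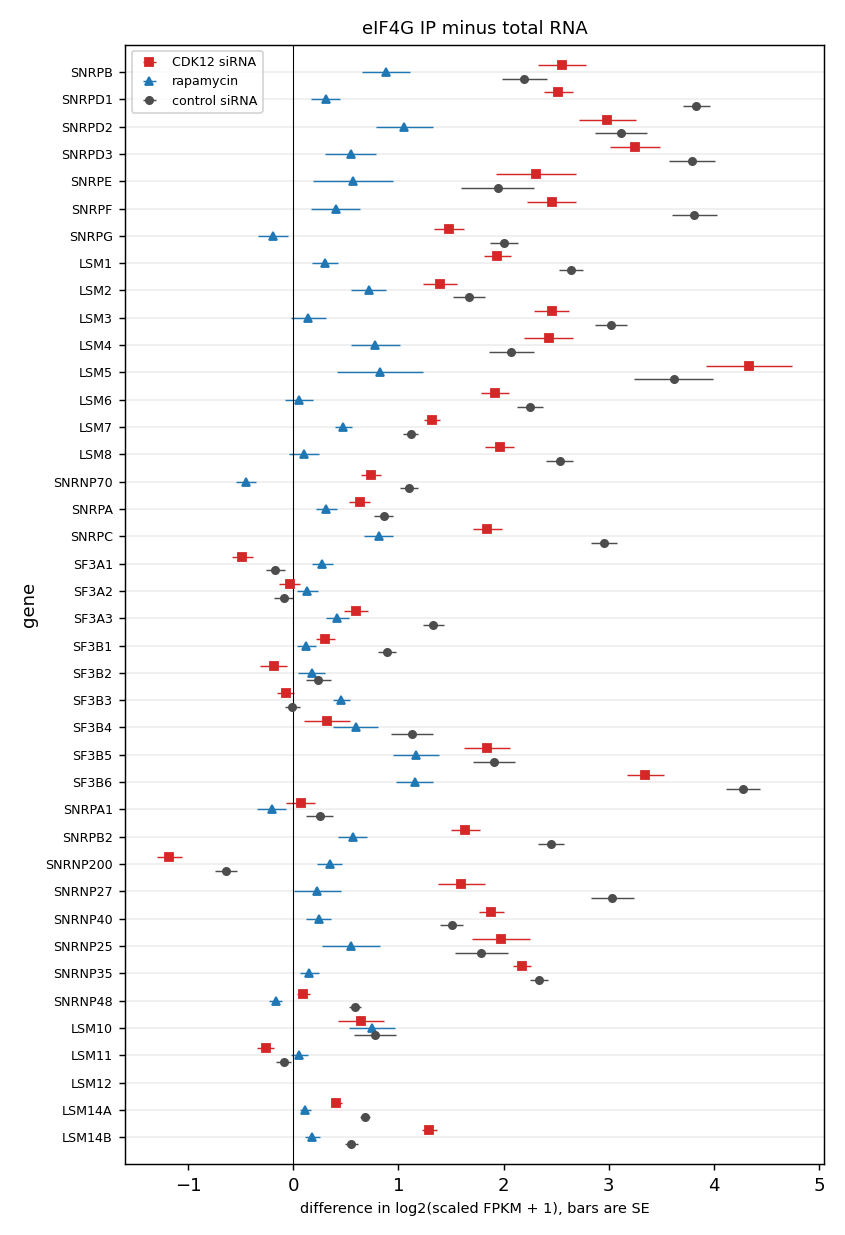
Difference between eIF4G IP and total RNA (x axis, log2(scaled FPKM + 1), bars are SE from the fit) for the 39 tested genes after CDK12 siRNA, with rapamycin and in control cells. Rapamycin points lie between −0.45 and 1.16, whereas control points reach 4.27.

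Within the IP, most of these transcripts were lower with rapamycin. In the rapamycin IP against the control IP, 29 of the 39 fell and 3 rose, where 40.3% of all genes fell and 32.2% rose, 72.5% in all. The groups did not overlap for 33 members, 30 of them lower, against 81.1% of all genes. The median was −0.94 over the members and −0.05 over all genes (log2). All 7 Sm core genes and all 8 LSM ring genes fell, with medians of −2.42 and −1.88. The 40 genes took 0.338% and 0.375% of gene reads in the rapamycin IP, against 0.851% to 0.963% in the control IP.

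On the log2(scaled FPKM + 1) scale, the largest falls were in the Sm core and SNRNP27. As a percentage of the control IP mean in FPKM, LSM3 was lower (7.63%) than SNRPD1 (7.80%) and SNRPD3 (8.84%). SNRPF had 3.67 and 2.39 FPKM in the rapamycin IP, against 53.3, 37.4 and 49.9 FPKM in the control IP, so its mean was 6.46% of the control mean (−3.84 ± 0.21, limma adjusted p = 4.45e-07). SNRNP27, a tri-snRNP protein (chromosome 2, 70121075 to 70132368, plus strand), had 2.50 and 1.89 FPKM against 37.4, 29.2 and 30.5 FPKM (−3.64 ± 0.20, adjusted p = 4.53e-07). SNRPD3 had 8.59 and 6.55 FPKM against 97.8, 78.1 and 81.0 FPKM (−3.63 ± 0.22, adjusted p = 6.68e-07). SNRPD1 had 3.40 and 2.72 FPKM against 43.2, 37.3 and 37.1 FPKM (−3.58 ± 0.13, adjusted p = 1.09e-07). These 4 genes were picked for the largest falls on this scale without overlap between the groups, so their lack of overlap was set by the selection. Other Sm genes fell less, with SNRPD2, SNRPE and SNRPB at −1.36 ± 0.25, −0.90 ± 0.35 and −0.85 ± 0.21.

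In the LSM rings the fall was largest for LSM3, from the shared part of both rings, at 1.95 ± 0.472 FPKM in the rapamycin IP and 25.6 ± 0.952 FPKM in the control IP (−3.44 ± 0.15, adjusted p = 1.8e-07). LSM1 and LSM8 fell by 2.35 and 2.19 on the log2 scale, and LSM7 by 0.45. Among the U2 genes, SF3B6 fell to 13.6 ± 3.16 FPKM, against 84.6 ± 9.48 FPKM in the control IP (−2.87 ± 0.16). SNRPB2, the U2 B″ protein, fell by 2.00, SF3A3 by 1.15 and SF3B4 by 0.72. SF3A1, SF3A2, SF3B2 and SF3B5 did not pass the test, with differences of −0.14 (SF3B2) to 0.28 (SF3B5). Of the U1 genes SNRPC and SNRNP70 fell, by 2.00 and 1.66, while SNRPA stood at −0.02 ± 0.09 (adjusted p = 0.884). All 3 U11/U12 genes fell.

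In the rapamycin IP 3 members rose. SNRNP200 had 12.6 and 13.7 FPKM, against 4.55, 4.30 and 5.37 FPKM in the control IP (1.03 ± 0.11, adjusted p = 1.83e-05). SF3B3, the large WD-repeat subunit of SF3B (chromosome 16, 70557691 to 70611571, plus strand), had 5.40 and 4.86 FPKM against 2.34, 2.59 and 2.61 FPKM (0.56 ± 0.07, adjusted p = 9.39e-05). LSM11, the U7-specific Sm-like protein of histone mRNA processing, averaged 1.04 ± 0.00283 FPKM with rapamycin and 0.338 ± 0.0276 FPKM in the control (0.49 ± 0.07, adjusted p = 0.000227), and it entered the test only through its rapamycin libraries. Without scaling, where the median of all genes moved to 0.12, the split was 8 higher and 26 lower, and with quantile normalization 8 higher and 22 lower. Of all 9908 genes, 7341 were called without scaling, 4235 of them higher, and 6689 with quantile normalization, 3261 of them higher. All 15 Sm and LSM ring genes were below 0 under both, with 14 and 10 of them called lower.

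Of 7 further members, 5 fell in the rapamycin IP and 2 did not pass the test. SNRNP35, a U11/U12 protein related to the U1 70K protein, had 2.05 and 1.88 FPKM in the rapamycin IP, against 11.9, 11.4 and 10.1 FPKM in the control IP (−2.28 ± 0.08). SNRNP25 and SNRNP48, its partners in the minor spliceosome, averaged 2.89 ± 1.15 and 0.886 ± 0.0262 FPKM against 5.27 ± 1.56 and 1.67 ± 0.124 FPKM. SNRNP25 is the member with the fewest reads, and its 2 rapamycin libraries lay at 3.70 and 2.07 FPKM. SNRNP40, a WD-repeat protein of the U5 particle, had 2.27 and 1.92 FPKM against 5.17, 5.36 and 4.66 FPKM (−1.21 ± 0.11). Among the LSM genes outside the rings, LSM14A, a P-body protein linked to translational repression, fell to 2.52 ± 0.0948 FPKM, against 3.99 ± 0.134 FPKM in the control IP (−0.74 ± 0.05). LSM14B and LSM10 did not pass, with 6.13 ± 0.260 and 2.83 ± 0.0198 FPKM against 5.16 ± 0.192 and 2.22 ± 0.802 FPKM.

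Nuclear noncoding RNAs moved the other way in the same libraries. The 5 listed nuclear noncoding RNAs in the table summed to 31386 and 36523 FPKM in the 2 rapamycin IP libraries, against 4965 to 5723 FPKM in the control IP, and all 4 tested rose there. RPPH1, the RNA of ribonuclease P, had the smallest p among them (4.09 ± 0.14, adjusted p = 1.09e-07). The sum, made up mostly of RMRP and RPPH1, was higher with rapamycin in total RNA too. It was 18187.1 and 18777.5 FPKM there, against 8149.52 and 9302.15 FPKM in control total RNA. None of the 5 noncoding RNAs was at 0 in any group. Their part in the fall of the snRNP protein transcripts was not tested.

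In total RNA with rapamycin against control total RNA, 5 of the 39 rose and 4 fell, where 20.4% of all genes rose and 16.2% fell (36.7% in all, and 81.0% with no overlap, as for 32 members), with medians of 0.08 over the members and 0.06 over all genes. SF3B5 had 38.6 and 33.9 FPKM with rapamycin, against 14.3 and 14.4 FPKM in the control (1.03 ± 0.22, adjusted p = 0.00624). SNRPA (0.53 ± 0.10), SF3B1 (0.39 ± 0.09), LSM11 (0.34 ± 0.08) and LSM14B (0.31 ± 0.07) also rose. LSM11, 1 of these 5, entered the test only through its rapamycin libraries. SNRNP27 (−0.84 ± 0.22), LSM3 (−0.56 ± 0.17), SF3A1 (−0.40 ± 0.10) and LSM14A (−0.18 ± 0.05) fell. LSM5 stood at 11.7 and 11.9 FPKM against 4.06 and 3.83 FPKM without passing the test (1.13 ± 0.41). It passed where only the compared groups were fitted, with an adjusted p of 0.00281.

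That fit, whose spread comes from the 4 total RNA libraries alone, called 15 members higher and 8 lower. It called 5269 of all 9908 genes, 3104 of them higher. The direction of the small changes depended on scaling: 14 members rose and 1 fell without scaling, when the median of all genes was 0.22, and 7 rose and 12 fell with quantile normalization. Of all genes, 5061 were called without scaling, 4160 of them higher, and 5514 with quantile normalization, 2501 of them higher. Without rapamycin total library 1 the count was 2, and SF3B5, SF3B1 and LSM14B had adjusted p of 0.0545, 0.0942 and 0.0598. Without control total library 1 or 2 the count was 3, with SF3B1 at adjusted p of 0.0607 and 0.0528 and LSM14B at 0.0602 without library 2. It was 5 without rapamycin total library 2 and 14 without either CDK12 siRNA IP library.

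The change in the IP beyond that in total RNA was tested as an interaction, and it was negative for most members. For rapamycin, 29 of the 39 were lower and 3 higher, where 37.9% of all genes were lower and 24.5% higher (62.3% in all), with medians of −1.26 over the members and −0.14 over all genes. SNRPD1 had the largest interaction, −3.52 ± 0.19 (limma adjusted p = 6e-06), and its total RNA had 2.55 and 2.41 FPKM with rapamycin against 2.20 and 2.22 FPKM in the control. SNRPF, SNRPD3 and SF3B6 followed at −3.41 ± 0.31, −3.24 ± 0.33 and −3.12 ± 0.24. SNRNP200 (0.98 ± 0.16, adjusted p = 0.000575), SF3B3 (0.46 ± 0.11, adjusted p = 0.00496) and SF3A1 (0.45 ± 0.14, adjusted p = 0.0171) were higher. With the gene-length trend removed SF3B3 no longer passed (0.23, adjusted p = 0.0903). All 15 Sm and LSM ring genes were lower, without scaling as well, and with quantile normalization 14 of the 15 were called lower and all were below 0. In the authors' deposited table, whose relative IP column is the same difference without scaling, 33 of the 40 genes were below 0 and 21 at or below −1 for rapamycin, with a median of −1.17.

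**Figure D3:**
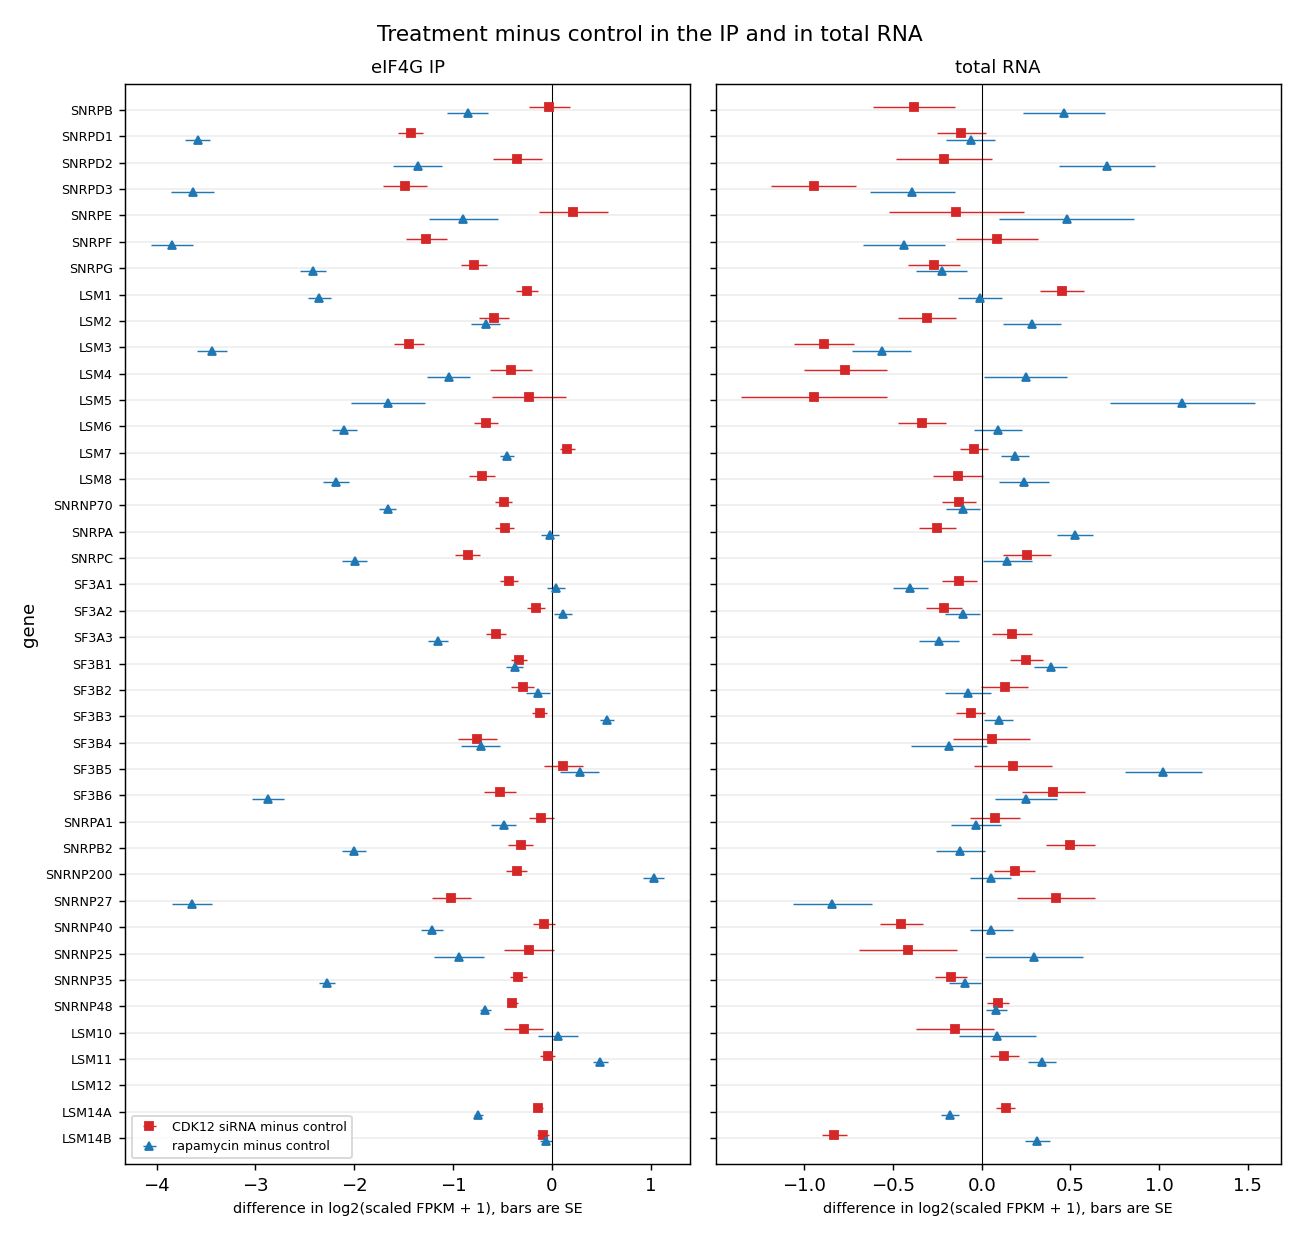
Treatment minus control in the eIF4G IP (left) and in total RNA (right), for CDK12 siRNA (squares) and rapamycin (triangles), on the log2(scaled FPKM + 1) scale with SE bars. The 2 panels have different x scales: rapamycin reaches −3.84 in the IP, whereas total RNA lies between −0.95 and 1.13.

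After CDK12 siRNA 20 members were lower in the IP, by less than with rapamycin for the 4 described next. In the CDK12 siRNA IP against the control IP, 20 of the 39 fell and 0 rose, where 18.4% of all genes fell and 13.7% rose (32.0% in all), with medians of −0.35 over the members and −0.02 over all genes (log2). SNRPD3 had a mean of 35.3 ± 14.6 FPKM after CDK12 siRNA, against 85.6 ± 10.6 FPKM in the control (−1.49 ± 0.22, limma adjusted p = 0.00125). LSM3 had 12.5 and 7.99 FPKM against 25.6, 24.6 and 26.5 FPKM (−1.45 ± 0.15, adjusted p = 0.000254). SNRPD1 had 18.3 and 13.8 FPKM against 43.2, 37.3 and 37.1 FPKM (−1.43 ± 0.13, adjusted p = 0.000109). SNRPF had 26.6 and 16.9 FPKM against 53.3, 37.4 and 49.9 FPKM (−1.27 ± 0.21, adjusted p = 0.00223). These 4 were picked from members whose libraries did not overlap between the groups, so their lack of overlap was set by the selection. No overlap held for 26 of the 39 members, 25 of them lower, against 50.6% of all genes.

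By class, 4 of 7 Sm core genes, 4 of 8 LSM ring genes, 3 of 3 U1 genes, 5 of 11 U2 genes, 2 of 3 U5 and tri-snRNP genes and 2 of 3 U11/U12 genes fell, with 0 of the 4 other LSM genes tested. SNRNP27 averaged 18.2 ± 7.13 FPKM against 32.4 ± 4.42 FPKM, and SNRPC 15.1 ± 0.0410 FPKM against 24.8 ± 2.27 FPKM. The members for which no fall was called include SNRPB, SNRPD2 and SNRPE. In FPKM before scaling, their 2 libraries lay on opposite sides of the control. SNRPE had 4.44 FPKM in library 2 and 15.1 FPKM in library 3, against 5.99 to 6.54 FPKM in the control.

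Positions against the control range were taken in FPKM before scaling. Across the 40 genes, 8 lay below the control range in library 2 and above it in library 3 (LSM4, LSM5, LSM11, SNRNP40, SNRPA1, SNRPB, SNRPD2 and SNRPE). Another 17 lay below it in both. Scaled FPKM, which were the values tested, put 25 of the 39 tested genes below it in both. The ratio of library 3 to library 2 ran from 0.548 for SNRPD3 to 3.39 for SNRPE, with a median of 1.01. Leaving out either library gave 18 to 23 calls, as did leaving out any of the other 11. Where only the IP libraries of these 2 treatments were fitted, 5 members passed, all lower: LSM3, SNRNP48, SNRPC, SNRPD1 and SNRPD3. Of all 9908 genes, 1015 were called in that fit, a share near that of the members. SNRPF had an adjusted p of 0.0504 there.

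In total RNA after CDK12 siRNA against control total RNA, 2 of the 39 rose and 5 fell, where 23.3% of all genes rose and 19.5% fell (42.8% in all, and 78.9% with no overlap, as for 35 members), with medians of −0.13 over the members and 0.02 over all genes. SNRPD3 had 2.43 and 2.21 FPKM after CDK12 siRNA, against 6.49 and 5.83 FPKM in the control (−0.95 ± 0.24, adjusted p = 0.0111). LSM3 (−0.89 ± 0.17), LSM14B (−0.83 ± 0.07), LSM4 (−0.77 ± 0.23) and SNRNP40 (−0.45 ± 0.12) also fell. SNRPB2 (0.50 ± 0.14) and LSM1 (0.45 ± 0.12) rose. LSM5 had 1.14 and 1.56 FPKM against 4.06 and 3.83 FPKM, a difference as large as that of SNRPD3, without passing the test (−0.95 ± 0.41, adjusted p = 0.0926).

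The count of 7 moved with the setting. The compared groups alone gave 20 calls, 7 higher and 13 lower, LSM5 among them (adjusted p = 0.00906). Of all 9908 genes, 5078 were called in that fit, 4030 with no scaling, 5708 with quantile normalization and 4380 with limma-voom on recovered reads. The members' share was near that of all genes with the compared groups alone and with quantile normalization. With no scaling 0 members were higher and 11 lower, with quantile normalization 9 and 14, and with limma-voom 6 and 6. Without CDK12 siRNA IP library 2 or 3 it was 13. It was 4 and 2 without CDK12 siRNA total library 1 and 2, and 3 and 4 without control total library 1 and 2. SNRPD3 had adjusted p of 0.0624 without CDK12 siRNA total library 2 and 0.0611 without control total library 1.

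The interaction for CDK12 siRNA was lower for 13 of the 39 and higher for 1, where 22.4% of all genes were lower and 16.7% higher (39.2% in all), with medians of −0.31 over the members and −0.03 over all genes. SNRNP27 (−1.43 ± 0.30, adjusted p = 0.0054), SNRPF (−1.35 ± 0.31, adjusted p = 0.00865), SNRPD1 (−1.31 ± 0.19, adjusted p = 9e-04) and SNRPC (−1.11 ± 0.18, adjusted p = 0.00184) fell in the IP, and no change of theirs was called in total RNA in the fit of all groups. With the compared groups alone, SNRNP27 (0.42, adjusted p = 0.013) and SNRPC (0.26, adjusted p = 0.0233) were called higher in total RNA. SNRPF, for example, had 2.47 and 2.84 FPKM in total RNA after CDK12 siRNA against 2.94 and 2.76 FPKM in the control. LSM14B, a relative of the P-body protein LSM14A, was the member with a higher interaction. It fell to 1.42 ± 0.117 FPKM in total RNA, against 3.72 ± 0.206 FPKM in the control, while its IP level was 5.69 and 5.19 FPKM against 5.01 to 5.38 FPKM (0.74 ± 0.09, adjusted p = 0.000521). For LSM1 (−0.70 ± 0.17) and SNRPB2 (−0.81 ± 0.19) the interaction was lower while total RNA rose, by 0.45 and 0.50, and no change was called in the IP. SNRPD3 fell in both fractions, and its interaction was not called.

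This comparison was sensitive to scaling and to 1 library. Of all 9908 genes, 4098 were called without scaling, 3212 of them higher, and 4987 with quantile normalization, 2208 of them higher. Without scaling the median of all genes was 0.19 and that of the members −0.02, with 3 members higher and 5 lower, and with quantile normalization 5 were higher and 12 lower. Without CDK12 siRNA IP library 2 the count of 14 became 25, of which 6 were higher and 19 lower. In the authors' deposited table, 23 of the 40 genes were below 0 for CDK12 siRNA, with a median of −0.03. The rapamycin and CDK12 siRNA comparisons share their control libraries. Side by side, the interaction was −3.52 for rapamycin and −1.31 for CDK12 siRNA in SNRPD1, −3.41 for rapamycin and −1.35 for CDK12 siRNA in SNRPF, and 0.98 for rapamycin and −0.54 for CDK12 siRNA in SNRNP200.

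**Figure D4:**
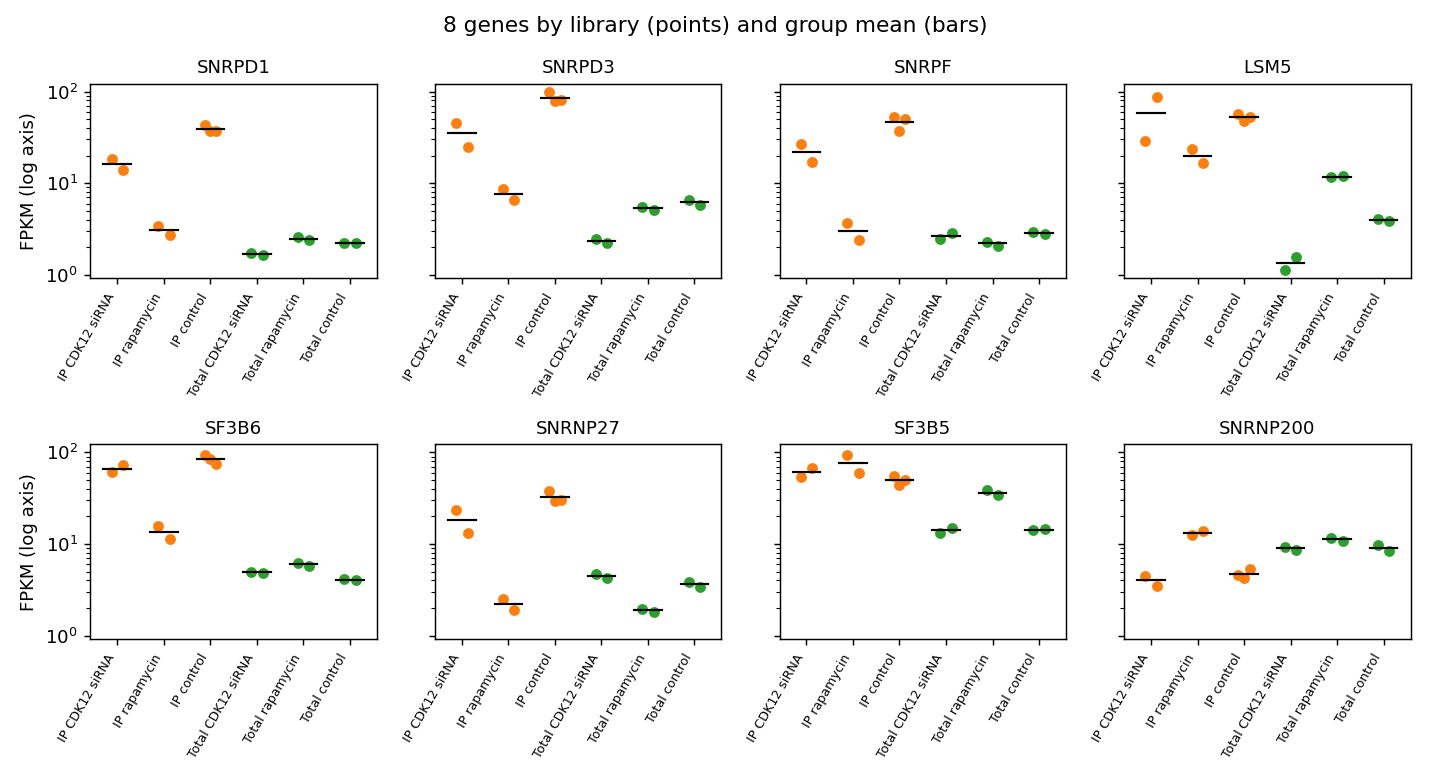
FPKM (log axis) in every library (points; orange IP, green total RNA) with the group mean (bar) for 8 genes. SNRPD1, SNRPD3, SNRPF, SF3B6 and SNRNP27 drop in the rapamycin IP towards their total RNA level, SF3B5 does not, and SNRNP200 is higher there.

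Partner genes of the snRNPs were read from 6 lists. Beside their counts stand the shares over all genes: 54.0% higher and 26.4% lower in the control IP against control total RNA, 40.3% lower and 32.2% higher in the rapamycin IP, and 18.4% lower and 13.7% higher in the CDK12 siRNA IP. Of 17 tested genes for snRNP assembly and transport, 14 were higher in the control IP than in control total RNA and 3 lower, and 12 fell and 3 rose in the rapamycin IP. GEMIN6, a subunit of the SMN complex that loads Sm proteins onto snRNA, had 5.48 and 4.37 FPKM in the rapamycin IP, against 40.3, 42.5 and 34.4 FPKM in the control IP (−3.04 ± 0.12, adjusted p = 1.4e-07). CLNS1A, a chaperone of free Sm proteins, and STRAP, another SMN complex partner, fell by 2.24 and 2.42 on the log2 scale. GEMIN6 had the smallest p of this list after CDK12 siRNA too, with 20.6 and 22.9 FPKM in the IP (−0.99 ± 0.12, adjusted p = 0.000607), and 12 of the 17 fell there with 0 rising.

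Of 12 tested tri-snRNP and U5 partners, 9 fell and 2 rose in the rapamycin IP, led by PPIH (−1.74 ± 0.09), TXNL4A (−1.55 ± 0.11) and PRPF31 (−1.20 ± 0.10). Of 10 U2 and branch site partners, 8 fell and 1 rose. U2AF1, the subunit that reads the 3′ splice site, was among those that fell (−1.64 ± 0.12). SF1 had 8.01 and 7.32 FPKM before scaling in the rapamycin IP, against 3.43 to 4.28 FPKM in the control IP. Of 3 minor spliceosome partners, 2 fell, ZCRB1 (−2.15 ± 0.15) and PDCD7 (−0.71 ± 0.10), and RNPC3 rose (0.15 ± 0.06, adjusted p = 0.0499). The mRNA decapping partners, which act with the LSM1 ring, differed in direction: 4 of 7 rose and 0 fell, where 32.2% of all genes rose and 40.3% fell, with EDC4 at 0.97 ± 0.07, PATL1 at 0.46 ± 0.05 and DCP1A at 0.25 ± 0.04. In histone pre-mRNA processing, 3 of 7 rose and 4 fell, against the same shares, with SLBP, the stem-loop binding protein, at −0.86 ± 0.08.

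Gene body length went with the IP over total difference. Across the 39 tested genes, Spearman's rho between length and the log2 difference was −0.42 after CDK12 siRNA, −0.53 with rapamycin and −0.35 in the control. Across all 9908 genes it was −0.41, −0.38 and −0.33, and the points of each set share their libraries and the length in the FPKM denominator. SNRPD1 and SNRPD3 combined gene bodies above 17 kb with differences of 3.83 and 3.79 in the control. For the change in the rapamycin IP, rho was 0.10 over the members and 0.02 over all genes.

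**Figure D5:**
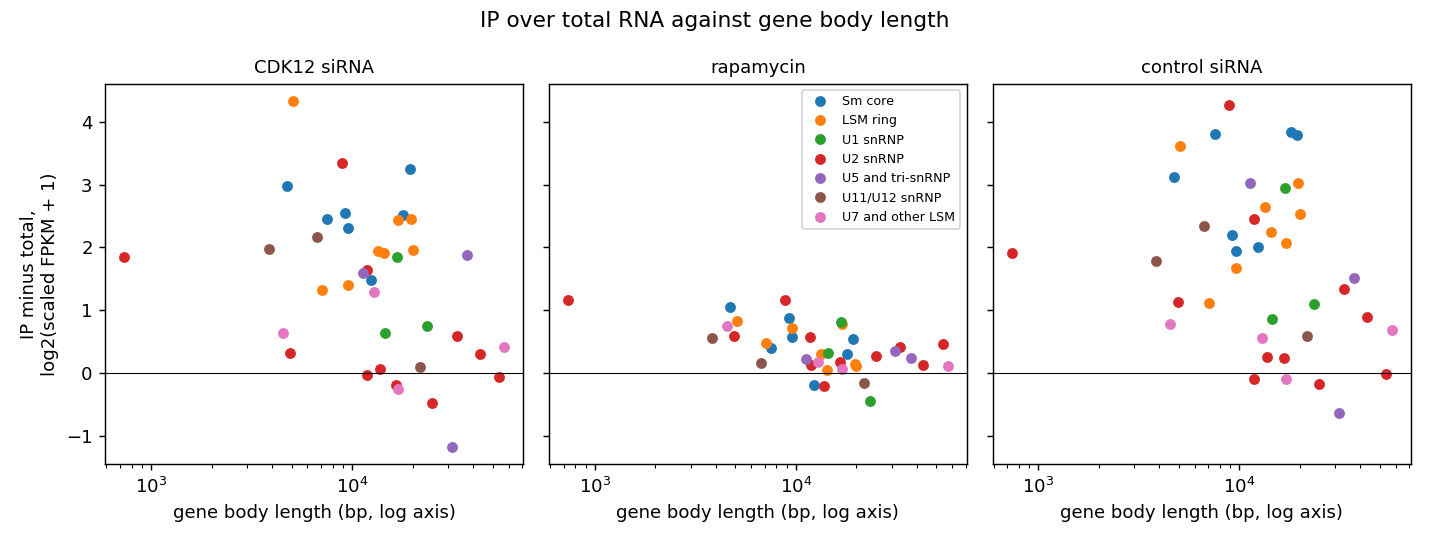
IP minus total RNA (y axis, log2(scaled FPKM + 1)) against gene body length (x axis, bp, log scale) for the 39 tested genes, coloured by complex, after CDK12 siRNA, with rapamycin and in control cells. All Sm core and LSM ring genes lie above 1 in the CDK12 siRNA and control panels, and SNRPD2 (1.05) is the one that does in the rapamycin panel, where the highest point is 1.16.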

How the data were processed

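Per the labels' protocols, RNA depleted of ribosomal RNA was sequenced single-end. The libraries were deposited as 1 table of FPKM values per gene and library, per the file headers counted by the authors with HOMER over hg19 gene bodies with isoforms condensed. The submitters' processing notes name STAR 2.4.0k and FastQC. The strand setting of the counting was not stated. The table also holds log2 differences that the authors deposited. These were checked to be unscaled: the relative IP columns are the IP change less the total RNA change.

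FPKM were divided by median-ratio factors (0.869 to 1.23) and tested as log2(FPKM + 1) with limma 3.58.1 (R 4.3.3) in 1 fit of 6 groups and 13 libraries, two-sided, with Benjamini-Hochberg adjustment over 9908 genes in each of 9 contrasts and a threshold of 0.05. A fold on this scale understates changes of low genes. Because the values are FPKM, whole reads were recovered from their steps (100% of the low values checked came out whole, within 0.05) for depth and for limma-voom. Sequence windows came from RefSeq (GRCh38.p14). The fit was also run on simulated data with the same spread setting for every library, so that run does not cover the unequal spread of these groups.

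Members and lists were chosen with earlier results of these data known. Any member may be named. Values in every library were given first for up to 4 members per direction and contrast with the largest change past the threshold, a mean of at least 5 FPKM in a compared group and no overlap between groups, and from each partner list up to 3 genes with the smallest p past the threshold were named. PRPF8, EFTUD2 and SF1 were added as partners with higher FPKM in the rapamycin IP.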

Additional observations from a re-analysis of the deposited data

Results flagged for a closer look

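The responses of the IP and of total RNA to the same treatment differed, by the interaction term of the limma fit, for 32 of the 39 tested genes with rapamycin and for 14 after CDK12 siRNA. Over all genes tested it did for 62.3% with rapamycin and 39.2% after CDK12 siRNA, so the count after CDK12 siRNA was no higher than the background. The change in the IP less that in total RNA, on the log2 scale, was −3.52 for SNRPD1, −3.41 for SNRPF, −3.24 for SNRPD3 and −3.12 for SF3B6 with rapamycin. It was 0.98 for SNRNP200 and 0.46 for SF3B3. After CDK12 siRNA the same term was −1.43 for SNRNP27, −1.35 for SNRPF, −1.31 for SNRPD1 and −1.11 for SNRPC, and 0.74 for LSM14B, whose RNA fell in total RNA but not in the IP. All groups held 2 or 3 libraries, so no single library was tested as an outlier.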

How the results depend on the processing

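Of 40 named changes, 897 of 916 alternative fits kept the call, 19 lost it and 0 reversed, and 8 changes lost a call at least once. These changes were picked from the same data as the largest calls, which favours keeping the call. Of the 23 alternatives, 13 left out 1 library, often one outside the compared groups. The share kept therefore does not describe the other members, whose counts moved as follows. Tested among genes with a mean of at least 5 FPKM, 18 members were left and the counts of calls were 16, 9 and 17 for IP against total RNA (CDK12 siRNA, rapamycin, control), 3 and 5 for total RNA (CDK12 siRNA, rapamycin), 12 and 16 for the IP, and 9 and 16 for the interactions. Of all 2128 genes left, the calls in the same order were 1964, 1617, 1973, 732, 795, 846, 1716, 746 and 1646. The mean was over all libraries, so a gene could pass through the IP alone. In the control IP against total RNA the median of all genes was then 1.67. Total RNA after CDK12 siRNA gave 11 calls without scaling, 23 with quantile normalization, 11 with a pseudocount of 0.1, 20 with the compared groups alone, 20 with library weights and 12 with limma-voom, against 7 as reported. Of all 9908 genes, the calls in these settings were 4030, 5708, 4387, 5078, 5766 and 4380, against 4240 as reported. Total RNA with rapamycin gave 15 member calls without scaling, 19 with quantile normalization, 23 with the compared groups alone and 19 with library weights, against 9. Over all genes these settings gave 5061, 5514, 5269 and 5815, against 3632. The CDK12 siRNA IP gave 5 member calls with the compared groups alone and 11 with library weights, against 20, and its interaction 8 without scaling, against 14. Over all genes the IP gave 1015 and 1105, against 3174, and the interaction 4098, against 3881. Leaving out 1 library at a time gave 31 to 33, 6 to 25 and 33 to 36 calls for IP against total RNA (CDK12 siRNA, rapamycin, control), 2 to 13 and 2 to 14 for total RNA (CDK12 siRNA, rapamycin), 18 to 23 and 29 to 32 for the IP, and 11 to 25 and 30 to 34 for the interactions. The causes were not tested, other than the fewer genes of the stricter filter. With the replicate number as a block the counts were 33, 17, 34, 7, 10, 18, 31, 15 and 31 in the same order, none moved by over 1.5 times. Deviations of same-numbered libraries correlated between −0.112 and 0.0962. In groups of 2 libraries these deviations mirror each other, so they cannot settle whether same-numbered libraries belong together. The fewest reads behind a value were 28, for SNRNP25, and precision is limited by 2 or 3 libraries a group.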
